A study of Mus musculus with 6 samples.

Results

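The genes examined were 10 genes of the nuclear end of the Hippo pathway and the kinases just above it. They were the coactivator genes *Yap1* and *Wwtr1* (which codes for TAZ), the DNA-binding partners *Tead1*, *Tead2*, *Tead3* and *Tead4*, the TEAD cofactors *Vgll3* and *Vgll4*, and the kinase genes *Lats1* and *Lats2*. They were taken by gene symbol from 22063 genes in a table of RNA-seq read counts, and all 10 had enough counts to be tested. The RNA came from cultured primary cardiac fibroblasts of mice with floxed *Tet3* alleles (*Tet3* f/f, C57BL/6J background), and the labels give no age for the animals. In 3 libraries (GFP) the cells had been transduced with an adenovirus for green fluorescent protein, and in 3 others (CRE) with an adenovirus for Cre recombinase, which cuts out DNA between loxP sites. TET3 oxidises 5-methylcytosine, the first step in removing the methyl mark from DNA. All cells of both groups then received TGF-β, a cytokine that drives fibroblasts towards the contractile myofibroblast state, so every value below is of TGF-β treated cells. Cells without TGF-β, and cells without floxed alleles given Cre, were not analysed here, so loss of *Tet3* and the presence of Cre itself cannot be told apart. The legend of the study's figure that holds these data gives 3 biological replicates. Neither it nor the labels say whether the 3 libraries of a group came from separate cultures or animals. The p-values therefore measure the spread between these libraries only, part of which may be technical.

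In the Hippo pathway, the MST kinases with their partner SAV1 activate LATS1 and LATS2 with their partner MOB1. The LATS kinases phosphorylate YAP and TAZ, which are then held in the cytoplasm by 14-3-3 proteins or degraded. When the kinases are quiet, as on a stiff matrix, YAP and TAZ enter the nucleus and bind TEAD proteins, since they have no DNA-binding domain of their own. In fibroblasts YAP and TAZ are known as mechanosensitive drivers of matrix and contractility genes. Phosphorylation and location in the cell are not seen by RNA-seq, so only the supply of transcripts was compared.

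TEAD proteins recognise the MCAT element, CATTCC, which reads GGAATG on the other strand. Promoter windows from RefSeq (GRCm38.p6), 250 bases before to 50 bases after a transcript start, were at hand for 8 of the 10 genes. *Tead1* and *Tead4* had none. For each gene the window nearest its principal start was read. For *Vgll4* the start site of that window lay 47382 bases from the principal start in GENCODE M21. The element occurred on either strand in 6 of the 8 windows, against 14.7% of 32851 windows of the same length from all genes. Among the 12173 windows with a CpG count in the range of these 8, between 13 and 49, the share was 10.1%. A match is a description of the letters and not a binding site. The stretches around it in the 6 genes show its surroundings, with the element in capitals, and are written 5′ to 3′ in the direction of transcription on the named strand of GRCm38.
Yap1, chr9:8004720-8004749, minus strand: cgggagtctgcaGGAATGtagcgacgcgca
Wwtr1, chr3:57576029-57576058, minus strand: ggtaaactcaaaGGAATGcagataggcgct
Tead3, chr17:28350702-28350730, minus strand: ccgggctCATTCCgtaCATTCCggccatc
Tead3, chr17:28350581-28350610, minus strand: aggtaagcccggGGAATGcaactcggaggc
Vgll3, chr16:65815114-65815143, plus strand: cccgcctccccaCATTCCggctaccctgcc
Vgll4, chr6:114969268-114969297, minus strand: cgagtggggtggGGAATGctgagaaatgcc
Lats2, chr14:57746102-57746131, minus strand: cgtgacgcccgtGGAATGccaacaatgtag
The stretches of *Yap1*, *Wwtr1*, *Vgll3* and *Vgll4* overlap no annotated exon. Both *Tead3* stretches lie wholly in annotated exons, and 22 of the 30 *Lats2* bases do. *Tead3* held 3 copies, as did only 0.131% of all windows at 3 or more. The windows of *Tead2* and *Lats1* held none, which says only that these letters are not in this window.

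**Figure D1:**
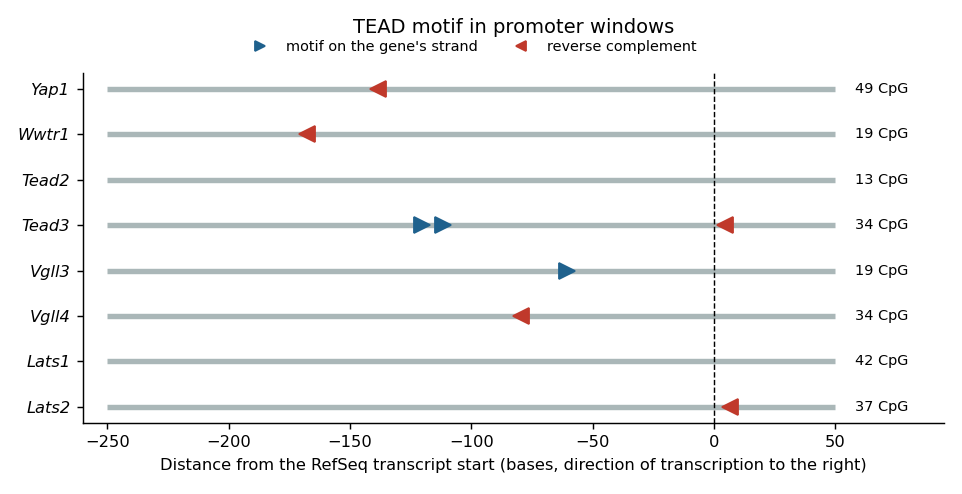
Position of the TEAD element in 8 RefSeq promoter windows, as distance in bases from the transcript start (dashed line), with the CpG count of each window at the right. Right-pointing markers are CATTCC on the strand of the gene and left-pointing markers its reverse complement. *Tead3* holds 3 copies, *Tead2* and *Lats1* none, and CpG counts run from 13 in *Tead2* to 49 in *Yap1*.

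CpG dinucleotides are the substrate of TET enzymes when methylated. A window held 13 (*Tead2*) to 49 (*Yap1*), against a median of 7 and an upper quartile of 20 in all windows, and *Tead2*, *Wwtr1* (19) and *Vgll3* (19) lay below that quartile. The upstream bases of *Tead2* and *Lats2*, chosen for their fall and rise, are shown with CpG in capitals. They held 13 and 37 CpG in the whole window. Of the other windows, *Vgll4* (34) fell, *Vgll3* (19) rose, and *Yap1* (49), *Lats1* (42), *Tead3* (34) and *Wwtr1* (19) were not called. A relation between CpG count and change was not tested. The stretches stop at the first annotated exon base, and no methylation was measured in this series.
Tead2, chr7:45215542-45215752, plus strand, 6 CpG in 211 bases: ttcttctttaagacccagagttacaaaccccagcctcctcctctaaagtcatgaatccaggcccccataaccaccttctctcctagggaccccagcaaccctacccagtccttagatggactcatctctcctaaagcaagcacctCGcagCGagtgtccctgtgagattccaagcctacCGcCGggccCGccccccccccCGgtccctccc
Lats2, chr14:57746124-57746373, minus strand, 31 CpG in 250 bases: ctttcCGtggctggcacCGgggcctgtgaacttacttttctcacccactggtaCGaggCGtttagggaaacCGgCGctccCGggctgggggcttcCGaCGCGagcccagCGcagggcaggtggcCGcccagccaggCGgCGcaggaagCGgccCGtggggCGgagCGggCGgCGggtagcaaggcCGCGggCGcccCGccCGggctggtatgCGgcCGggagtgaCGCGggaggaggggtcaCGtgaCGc
The CpG of *Tead2* sit in the last part of the stretch, whereas those of *Lats2* run along its whole length.

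Total counts ran from 17002126 to 20343590 per library, and a count of 0 allows up to 3 counts, or 0.156 to 0.186 CPM, counting error only. CPM, the usual abbreviation for counts scaled to library size, was computed here with edgeR's TMM factors. *Tet3* itself (chr6:83362373-83459084) had 1044, 965 and 1000 counts in GFP and 642, 649 and 637 in CRE. It fell by 0.72 on the log2 scale (SE 0.08, edgeR adjusted p of 5.4e-05). The count covers the whole gene and does not separate the floxed exons. Of 12862 tested genes, 25.5% were called higher and 25.7% lower in CRE at an adjusted p under 0.05, or 51.2% in either direction, and the groups did not overlap in CPM for 59.6%. A call is therefore common, and the size of a change says more than the call. The middle of all tested genes, from the 25th to the 75th percentile, lay between -0.26 and 0.25 on the log2 scale. Fibroblast markers were at 27277 to 28401 CPM in sum in GFP and 16488 to 17890 in CRE, and all 6 (*Col1a1*, *Col1a2*, *Dcn*, *Lum*, *Pdgfra*, *Tcf21*) were called lower. The 4 endothelial markers summed to 233 to 262 CPM in GFP and 123 to 144 in CRE, with *Pecam1*, *Cdh5* and *Tek* called lower and *Kdr* not. Macrophage markers summed to 29.2 to 32.9 and 18.4 to 21.5 CPM, with 2 of 3 tested lower, and cardiomyocyte markers to 0.55 to 0.64 CPM over both groups, with *Myh6* at 0 in every library. Mural markers summed to 47.2 to 56.1 CPM in GFP and 46.4 to 53.99 in CRE (1 of 4 higher, 2 lower), and mesothelial markers to 6.75 to 7.67 and 6.55 to 9.58 (2 of 3 tested higher, 1 lower). In bulk RNA, fewer cells of a type and less RNA per cell cannot be told apart, and the part of these marker shifts in the results below was not tested.

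Scaling bears directly on small changes. With library size alone in place of TMM, the median log2 fold change of all tested genes moved by 0.16, and 72.6% of calls were higher in place of 49.8%. On log2(FPKM + 1) values it moved by 0.13, with 72.2% of calls higher. FPKM, the authors' level per transcript length and library total, keeps each library's own total, so a gene can be slightly higher in FPKM and slightly lower in TMM-scaled CPM. Both shifts are upwards, so a fall smaller than about this size can turn into a rise on those scales.

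Of the 10 genes, 3 were higher in CRE (*Tead4*, *Vgll3*, *Lats2*), 3 were lower (*Tead1*, *Tead2*, *Vgll4*) and 4 did not pass (*Yap1*, *Wwtr1*, *Tead3*, *Lats1*). That is 60.0% called, beside the 51.2% of all tested genes. The groups did not overlap for 8 of the 10, beside 59.6% of all tested genes. The median log2 fold change of the 10 was -0.09, against 0.01 for all tested genes. Gene models carry their own limits. *Lats2* shares 2955 exon bases on the same strand with Gm49361, *Tead2* shares 13 on the opposite strand with *Cd37*, and *Yap1* shares 116 on the opposite strand with Gm20416. Whether counting used the strand is not given in the sources used here. Gm49361 had 0 counts in every GFP library and 5, 0 and 14 in the CRE libraries, and *Cd37* had 0 to 6 counts per library, so few reads were assigned to either. Whether reads in the shared bases were left uncounted was not tested.

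**Figure D2:**
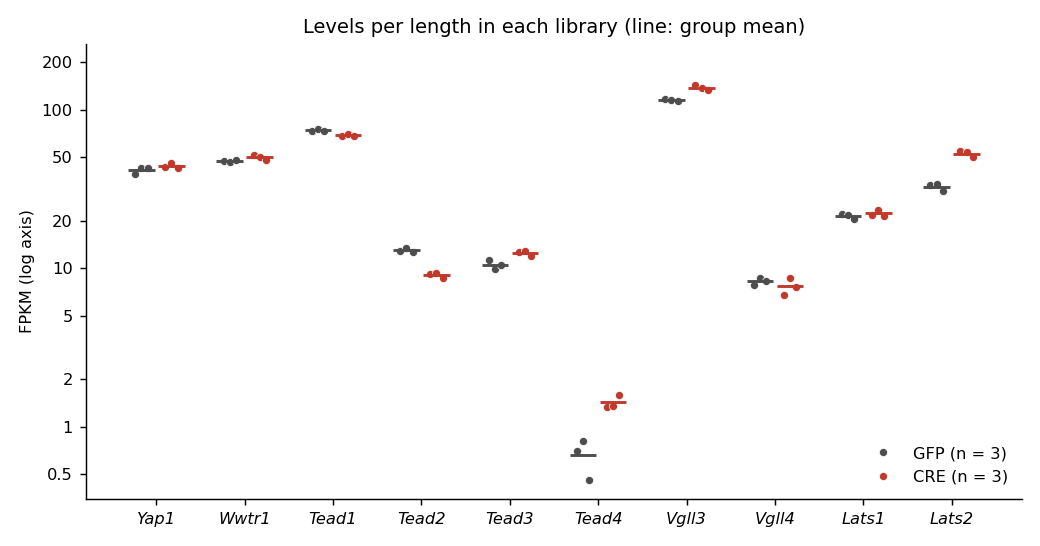
FPKM (log axis) of the 10 genes in each library, 3 GFP points in grey and 3 CRE points in red, with a line at each group mean. *Vgll3* is the highest in both groups, *Tead4* the lowest, and the groups stand apart most clearly for *Lats2*, *Tead2* and *Tead4*.

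The coactivators came first. *Yap1* (ENSMUSG00000053110, chr9:7931999-8004596, minus strand, protein-coding) had 165, 176 and 179 CPM in GFP and 159, 167 and 161 in CRE. The groups overlapped, since the lowest GFP library lay below the highest CRE library. The log2 fold change was -0.09 (SE 0.05, 95% interval -0.20 to 0.01), with an edgeR adjusted p of 0.126. Without GFP replicate 1, the lowest of its group, it was -0.13 with an edgeR adjusted p of 0.0343. *Wwtr1* (ENSMUSG00000027803, chr3:57455649-57575910, minus strand, protein-coding) had 238, 234 and 239 CPM in GFP and 231, 223 and 215 in CRE. Every CRE library lay below every GFP library, by a small margin. The log2 fold change of *Wwtr1* was -0.09 (SE 0.04, 95% interval -0.18 to 0.01), with an edgeR adjusted p of 0.123. In FPKM, on the other hand, both were slightly higher in CRE. *Yap1* stood at 41.7 ± 2.15 FPKM in GFP and 44.3 ± 1.64 in CRE, and *Wwtr1* at 47.6 ± 0.52 and 50.2 ± 1.63 (SD, n = 3 each). With TMM scaling, the 95% interval of each gene reached up to 0.01 on the log2 scale, and down to -0.20 for *Yap1*.

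The 4 TEAD genes, which code for the proteins that place YAP and TAZ on DNA, did not all change alike. *Tead1* and *Tead2* were called lower, *Tead4* was called higher and *Tead3* was not called. *Tead1* (ENSMUSG00000055320, chr7:112679318-112906807, plus strand, protein-coding), by far the most abundant of them, had 580, 596 and 590 CPM in GFP and 477, 495 and 483 in CRE. The groups lay well apart. *Tead1* fell by 0.28 on the log2 scale (SE 0.04), with an edgeR adjusted p of 0.000222, to 82.4% of the GFP mean. Limma on log2(FPKM + 1) values gave -0.10 with an adjusted p of 0.0569, and 46.2% of all tested genes had a larger absolute change. *Tead2* (ENSMUSG00000030796, chr7:45215753-45233644, plus strand, protein-coding), best known from the early embryo, had 29.1, 29.9 and 29.0 CPM in GFP and 18.3, 17.9 and 17.2 in CRE. The 3 values of each group lay close together and the gap between groups was wide. *Tead2* fell by 0.72 on the log2 scale (SE 0.06) to 60.7% of the GFP mean, with an edgeR adjusted p of 1e-05. It was called lower in each of 16 alternative analyses, with log2 fold changes from -0.74 to -0.48, and 14.3% of all tested genes had a larger absolute change.

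*Tead3* (ENSMUSG00000002249, chr17:28331671-28350817, minus strand, protein-coding), a member known from placenta, had 30.9, 27.1 and 28.7 CPM in GFP and 31.2, 31.3 and 28.7 in CRE. The groups overlapped. The log2 fold change was 0.07 (SE 0.07, 95% interval -0.08 to 0.23), with an edgeR adjusted p of 0.406. It was called higher with library size alone (0.24, edgeR adjusted p of 0.0139) and in limma on log2(FPKM + 1) values (0.23, adjusted p of 0.0200), where the median of all genes shifts the same way. *Tead4* (ENSMUSG00000030353, chr6:128224288-128300823, minus strand, protein-coding), which specifies trophectoderm in the early embryo, was barely expressed, with 33, 46 and 27 counts in GFP and 60, 62 and 76 in CRE. In CPM that was 2.05, 2.59 and 1.40 against 3.22, 3.43 and 4.01, with no overlap. *Tead4* rose by 0.82 on the log2 scale (SE 0.24, 95% interval 0.30 to 1.35), with an edgeR adjusted p of 0.0142. Counting error alone is 19.2% at its lowest count. The call was lost without GFP replicate 3 (0.61, edgeR adjusted p of 0.0536) and without CRE replicate 3 (0.73, edgeR adjusted p of 0.0550).

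VGLL proteins bind TEADs through a Vestigial-like motif and thereby compete with YAP and TAZ. *Vgll3* (ENSMUSG00000091243, chr16:65815257-65866368, plus strand, protein-coding) is known as a mechanosensitive TEAD cofactor of myofibroblasts. It had 527, 494 and 500 CPM in GFP and 651, 603 and 587 in CRE, and every CRE library lay above every GFP library. *Vgll3* rose by 0.28 on the log2 scale (SE 0.05), with an edgeR adjusted p of 0.00115, to 121% of the GFP mean. It was called higher in each of 16 alternative analyses, with log2 fold changes from 0.24 to 0.44. *Vgll4* (ENSMUSG00000030315, chr6:114860628-114969994, minus strand, protein-coding), a TEAD co-repressor with paired TEAD-binding motifs, moved the other way. It had 16.1, 18.2 and 16.6 CPM in GFP and 13.1, 15.6 and 13.5 in CRE. The groups did not overlap, but CRE replicate 2 lay close to GFP replicate 1. *Vgll4* fell by 0.27 on the log2 scale (SE 0.09), with an edgeR adjusted p of 0.0347. That call was lost in 8 of 16 alternatives, with adjusted p between 0.0639 and 0.394. They were DESeq2, library size alone, both FPKM fits, and leaving out GFP replicate 2, GFP replicate 3, CRE replicate 1 or CRE replicate 3. The paralogues *Vgll1* and *Vgll2* had 0 counts in all 6 libraries.

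The LATS kinases are the direct brake on YAP and TAZ, and *Lats2* is itself a known target gene of YAP. *Lats1* (ENSMUSG00000040021, chr10:7681214-7716460, plus strand, protein-coding) had 153, 148 and 144 CPM in GFP and 139, 140 and 134 in CRE. Its groups did not overlap, but the gap was narrow. The log2 fold change of *Lats1* was -0.10 (SE 0.04, 95% interval -0.20 to -0.0031), with an edgeR adjusted p of 0.0795. *Lats2* (ENSMUSG00000021959, chr14:57689662-57758388, minus strand, protein-coding) had 178, 176 and 160 CPM in GFP and 248, 245 and 244 in CRE. All 3 CRE libraries were nearly equal and lay far above the GFP libraries. *Lats2* rose by 0.52 on the log2 scale (SE 0.05) to 143% of the GFP mean, with an edgeR adjusted p of 1.7e-05. It was called higher in each of 16 alternative analyses, with log2 fold changes from 0.47 to 0.69. Of all tested genes, 23.1% had a larger absolute change than *Lats2*.

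**Figure D3:**
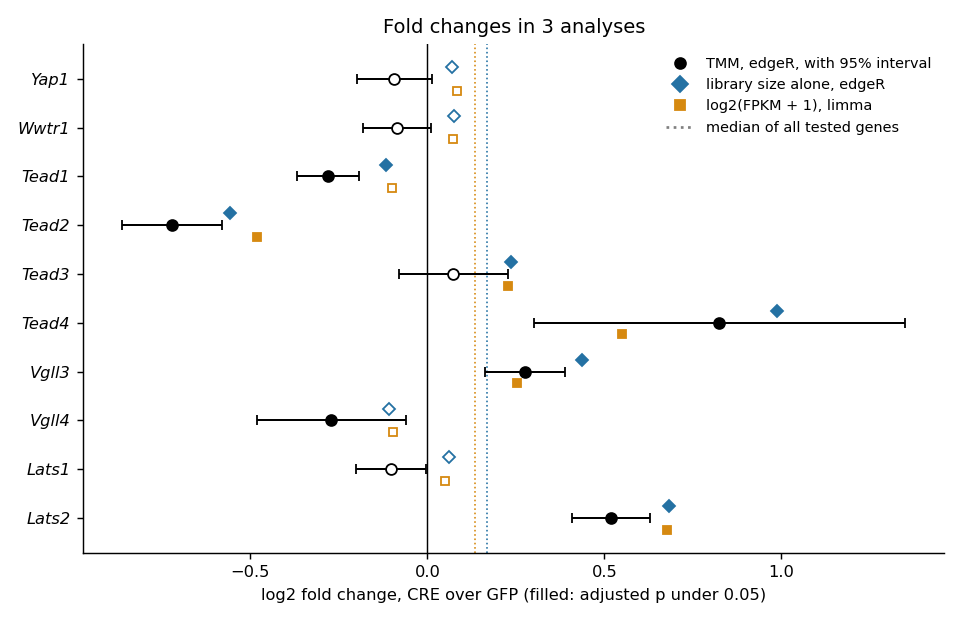
Log2 fold change of each gene, CRE over GFP, in 3 analyses: edgeR with TMM (circles, bars are 95% intervals), edgeR with library size alone (diamonds) and limma on log2(FPKM + 1) (squares). Filled symbols have an adjusted p under 0.05, and dotted lines mark the median of all tested genes in the latter pair. *Tead2*, *Tead4*, *Vgll3* and *Lats2* keep their side of 0 and their call in all 3, whereas *Yap1*, *Wwtr1* and *Lats1* cross 0.

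Ratios between paralogues within a library do not depend on how libraries are scaled. They were taken in FPKM, which is per length, for 6 pairs. The smallest two-sided p that an exact permutation test of 3 against 3 allows is 0.1, so no ratio could pass 0.05. The 5 ratios at 0.1 had an adjusted p of 0.12 over these 6. *Lats2* was 1.52, 1.57 and 1.51 times *Lats1* in the GFP libraries and 2.51, 2.31 and 2.36 times in the CRE libraries. Every CRE library lay above every GFP library, with a difference of 0.64 on the log2 scale between group means (exact p = 0.1). *Tead2* was 0.177, 0.179 and 0.172 times *Tead1* in GFP and 0.136, 0.132 and 0.126 times in CRE, a log2 difference of -0.42 (exact p = 0.1). The groups did not overlap, so *Tead2* was lower even beside *Tead1*, which was itself called lower. *Tead3* relative to *Tead1* was 0.143 ± 0.012 in GFP and 0.182 ± 0.006 in CRE (SD, n = 3 each), a log2 difference of 0.35 (exact p = 0.1). *Tead4* relative to *Tead1* was 0.0089 ± 0.0023 in GFP and 0.021 ± 0.0021 in CRE (SD, n = 3 each), a log2 difference of 1.24 (exact p = 0.1). *Vgll3* was 13.3 to 14.9 times *Vgll4* in GFP and 15.99 to 20.98 times in CRE (exact p = 0.1), with the widest spread of the 6 ratios in CRE. The balance of the coactivators stayed within the replicate spread. TAZ transcripts were 1.22, 1.096 and 1.12 times *Yap1* transcripts in GFP and 1.18, 1.09 and 1.128 times in CRE, with overlapping groups (log2 difference of -0.01, exact p = 0.9). The level of this ratio depends on the length used. With counts divided by the longest annotated transcript and the library total, *Wwtr1* stood at 47.6 and *Yap1* at 31.0 in GFP. In CRE they stood at 50.2 and 32.5.

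As shares of the summed TEAD level in FPKM, *Tead1* held 75.3% ± 0.65 in GFP and 74.99% ± 0.50 in CRE (SD, n = 3 each), and the groups overlapped (exact p = 0.5). *Tead2* stood above *Tead3* in every GFP library and below it in every CRE library. *Tead2* held 13.2%, 13.5% and 13.0% in GFP and 10.1%, 9.91% and 9.52% in CRE. *Tead3* held 11.5%, 9.90% and 10.8% in GFP and 13.9%, 13.7% and 13.2% in CRE. *Tead4* held 0.67% ± 0.18 in GFP and 1.55% ± 0.17 in CRE (SD, n = 3 each). None of these 3 overlapped between groups (exact p = 0.1 each, 0.133 adjusted over the 4 shares).

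**Figure D4:**
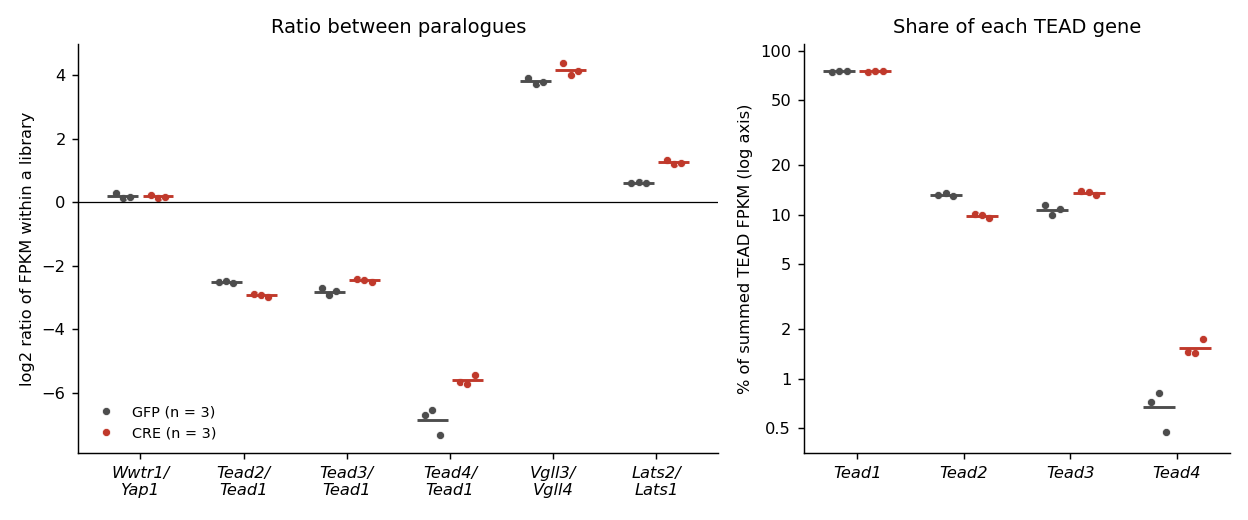
Left, log2 ratio of FPKM between paralogues within each library (GFP grey, CRE red, line at the group mean, n = 3). Right, percent of the summed TEAD FPKM taken by each TEAD gene (log axis). *Lats2*/*Lats1* moves from 0.62 to 1.26 on the log2 scale, *Tead2*/*Tead1* from -2.51 to -2.93, *Wwtr1*/*Yap1* overlaps, and *Tead1* keeps about 75% of the TEAD level.

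In order of FPKM, the GFP libraries ran *Vgll3* (115 ± 1.84), *Tead1* (74.0 ± 1.35), *Wwtr1*, *Yap1*, *Lats2* (32.8 ± 1.61), *Lats1* (21.4 ± 0.86), *Tead2* (13.0 ± 0.42), *Tead3* (10.5 ± 0.68), *Vgll4* (8.27 ± 0.46) and *Tead4* (0.66 ± 0.18). No neighbours in this order overlapped. *Vgll3* was higher in FPKM than 95.9% of tested genes in GFP, and *Tead4* higher than 9.87%. In CRE the order was *Vgll3* (138 ± 5.04), *Tead1* (69.0 ± 1.49), *Lats2* (52.9 ± 2.34), *Wwtr1*, *Yap1*, *Lats1* (22.2 ± 1.06), *Tead3* (12.5 ± 0.49), *Tead2* (9.06 ± 0.39), *Vgll4* (7.69 ± 0.91) and *Tead4* (1.42 ± 0.13). *Lats2* moved above both coactivators, with a range that overlapped *Wwtr1*, and *Tead3* moved above *Tead2*, whose range overlapped *Vgll4*. The order depends on the length used. With counts divided by the longest annotated transcript and the library total, *Lats2* (31.2 ± 1.72) and *Yap1* (31.0 ± 1.43) already overlapped in GFP, as did *Tead2* (8.16 ± 0.14) and *Tead3* (7.93 ± 0.52). On that scale *Lats2* (50.1 ± 0.35) overlapped *Wwtr1* (50.2 ± 1.64) in CRE and stood above *Yap1* (32.5 ± 0.94), and *Tead3* (9.33 ± 0.46) stood above *Tead2* (5.54 ± 0.16).

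The count divided by FPKM and library total gives the transcript length that the authors' FPKM implies, and it moves when the isoforms, or their estimated shares, move. For 8 of the 10 genes the groups overlapped. The groups did not overlap for 14.7% of the 11528 genes with at least 20 counts and over 0.1 FPKM in every library. For *Vgll3* it was 4.25, 4.02 and 4.18 kb in GFP and 4.803, 4.64 and 4.68 kb in CRE, without overlap (exact p = 0.1). That is a log2 ratio of 0.18, above the upper end (0.16) of the middle 95% of these genes. *Vgll3* accordingly rose less in FPKM than in counts divided by the longest transcript, from 68.3 ± 2.25 to 92.5 ± 4.70 on the latter scale (SD, n = 3 each). *Tead4*, with few counts, went from 2.88 ± 0.13 to 2.64 ± 0.09 kb, within the range of all genes. What underlies the *Vgll3* shift was not tested.

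Other genes of the pathway were taken from lists by role. Of 64, 62 were tested, and 20 were higher and 13 lower, or 53.2% called beside 51.2% of all tested genes, with a median log2 fold change of 0.05. The split between directions rests on the scaling, here and in the lists by role that follow. With library size alone 39 were called higher. Of the 20 higher, 19 were also called higher with library size alone and in limma on log2(FPKM + 1) values. Both scales move the median of all genes upwards, so higher calls tend to hold there and lower calls to be lost. Of the 13 lower, only *Sav1*, *Tnik* and *Dchs1* were called lower in both. The counts also fell with fewer libraries, to 12 higher without GFP replicate 3 or CRE replicate 2, 13 higher without CRE replicate 3, 7 lower without GFP replicate 1 or CRE replicate 2, and 8 lower without CRE replicate 3.

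Of the 20 genes of the kinase cascade, 6 were higher and 4 lower, a share called of 50% beside the 51.2% of all tested genes. *Stk4* (MST1) had 68.3, 63.5 and 63.9 CPM in GFP and 117, 114 and 105 in CRE, and rose by 0.78 on the log2 scale (SE 0.06, edgeR adjusted p of 2.77e-06). *Stk3* (MST2) stood at 0.12 on the same scale (edgeR adjusted p of 0.0613), and was called higher with library size alone (0.28, edgeR adjusted p of 0.000629) and in limma on log2(FPKM + 1) values (0.28, adjusted p of 0.00199). The difference between the MST kinases was not tested. *Stk3*, *Mob1a* and *Nf2* were named after their values were seen, as partners of named genes or as the upstream regulator. *Sav1*, the scaffold that holds MST kinases, went the other way, with 84.7, 92.2 and 93.7 CPM in GFP and 61.1, 64.4 and 58.1 in CRE. It fell by 0.56 on the log2 scale (SE 0.06, edgeR adjusted p of 2.56e-05). Of the LATS partners, *Mob1b* rose by 0.22 and *Mob1a* stood at -0.04 (edgeR adjusted p of 0.530). *Mob1a* turned to 0.13 with library size alone (edgeR adjusted p of 0.0310) and to 0.17 in limma on log2(FPKM + 1) values (adjusted p of 0.0515). *Wwc2*, of the KIBRA family, rose by 0.19, but not past the threshold without GFP replicate 3 (edgeR adjusted p of 0.0646) or CRE replicate 1 (0.0532). *Map4k4* and *Map4k5*, kinases that act on LATS in parallel to MST, fell by 0.28 and 0.23. Both lost the call with library size alone and on FPKM values (adjusted p between 0.0935 and 0.277). The 4th lower gene, *Tnik* (log2 fold change of -1.10), was named after its values were seen and had a mean under 3 CPM in both groups. *Nf2*, which codes for Merlin, stood at -0.03 (edgeR adjusted p of 0.628). It turned to 0.13 with library size alone (edgeR adjusted p of 0.0390) and to 0.16 in limma on log2(FPKM + 1) values (adjusted p of 0.0657).

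STRIPAK is the phosphatase complex that turns MST kinases off. Of 15 STRIPAK genes, 5 were higher and 1 lower, or 40.0% called beside 51.2% of all tested genes. The lower gene was *Stk26* (log2 fold change of -0.37, named after its values were seen). *Cttnbp2nl*, a gene of the complex, had 107, 111 and 106 CPM in GFP and 202, 190 and 164 in CRE, and rose by 0.78 on the log2 scale (SE 0.07, edgeR adjusted p of 1.16e-05). *Sike1*, which links the complex to the pathway, and *Mob4* rose by 0.27 and 0.19. *Mob4* lost its call in 4 of the 6 fits that left out 1 library (GFP replicate 2, GFP replicate 3, CRE replicate 1 and CRE replicate 2, edgeR adjusted p between 0.0579 and 0.0815). Of 16 junction and adaptor genes, 6 were higher and 5 lower, or 68.8% called beside 51.2%. *Amot*, whose product binds YAP and LATS, had 11.01, 9.24 and 10.1 CPM in GFP and 22.1, 23.98 and 21.2 in CRE. It rose by 1.15 on the log2 scale (SE 0.09, edgeR adjusted p of 5.73e-06), the most of this list. *Ajuba*, a LIM protein that restrains LATS, rose by 0.56, and *Dlg5*, a polarity scaffold, by 0.28. *Wtip*, *Rassf1* and the protocadherin *Fat1* fell by 0.27, 0.24 and 0.18. All 3 lost the call with library size alone, on FPKM values, and without GFP replicate 1, CRE replicate 2 or CRE replicate 3. *Wtip* also lost it without GFP replicate 3, in DESeq2 (adjusted p of 0.0935) and with upper-quartile scaling (edgeR adjusted p of 0.0521). *Fat1* also lost it without CRE replicate 1 and with upper-quartile scaling (edgeR adjusted p of 0.0625). In these fits without 1 library the edgeR adjusted p ran from 0.0956 to 0.119 for *Wtip*, 0.0704 to 0.0887 for *Rassf1* and 0.0571 to 0.156 for *Fat1*. The other lower genes, *Dchs1* (-1.07) and *Tjp1* (-0.17), were named after their values were seen.

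Of 11 genes for retention and turnover of YAP and TAZ, 3 were higher and 3 lower, or 54.5% called beside 51.2% of all tested genes. *Sfn*, which codes for 14-3-3 sigma, had 5.28, 3.66 and 3.17 CPM in GFP and 16.9, 20.1 and 13.9 in CRE. It rose by 2.08 on the log2 scale (SE 0.19, edgeR adjusted p of 1.28e-05). It was the only 14-3-3 gene on the list under 21 CPM in every library. *Fbxw11*, of the ubiquitin ligase that takes up phosphorylated YAP, and *Ywhah* each rose by 0.15. *Ywhaz*, *Ywhab* and *Ywhag*, which also code for 14-3-3 proteins, fell by 0.16, 0.12 and 0.12. The direction of those falls depends on the scaling, since on log2(FPKM + 1) values they were 0.03, 0.04 and 0.04. *Ywhag* lost its call without any 1 library (edgeR adjusted p between 0.0533 and 0.182), and *Ywhab* without any but GFP replicate 2 (0.0748 to 0.147). *Ywhah* lost it without GFP replicate 2 or 3 or CRE replicate 1 or 3 (0.0519 to 0.182), and *Fbxw11* without GFP replicate 1 or CRE replicate 2 (0.0672 and 0.0880). In DESeq2 the adjusted p of *Fbxw11* and *Ywhah* was 0.0523 and 0.0628. *Ywhah* also lost its call with RLE scaling (edgeR adjusted p of 0.0538) and with no filter beyond 1 count (0.0635). *Ywhab* and *Ywhag* lost theirs with upper-quartile scaling (edgeR adjusted p of 0.0778 and 0.0897), and *Ywhag* with at least 10 counts required in every library (0.0532).

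**Figure D5:**
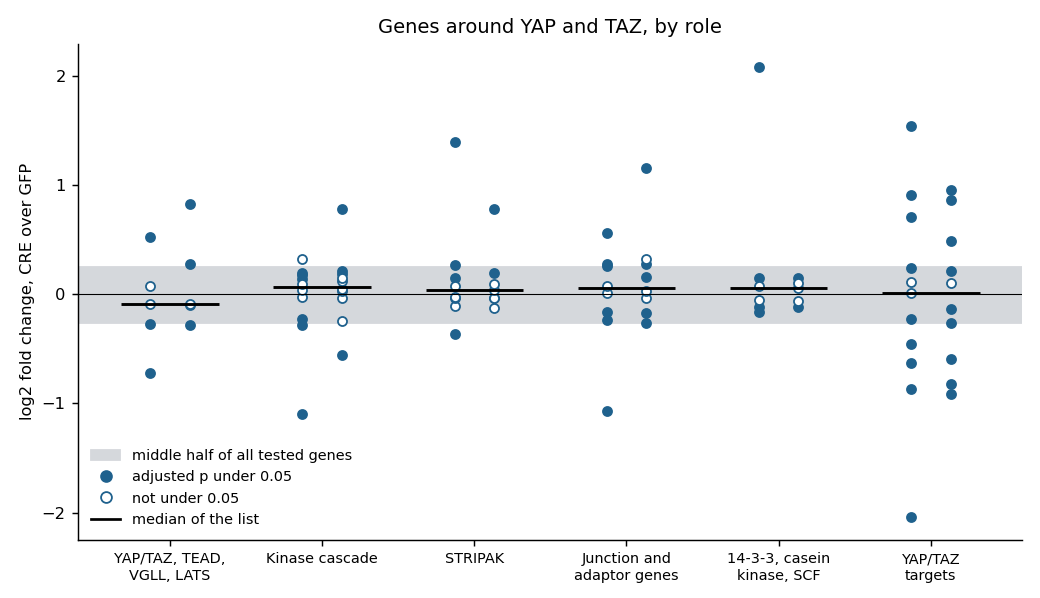
Log2 fold change, CRE over GFP, of the 10 genes and of the lists around them, 1 point per tested gene, filled where the edgeR adjusted p is under 0.05, with a line at the list median. The grey band holds the middle of all tested genes, from -0.26 to 0.25. List medians lie between -0.09 and 0.07, and *Sfn* (2.08) and *Igfbp3* (-2.04) stand farthest out.

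Genes listed as YAP and TAZ targets changed in both directions. Of 21, 8 were higher and 10 lower, or 85.7% called beside 51.2% of all tested genes, with a median log2 fold change of 0.01, as over all tested genes. The list was chosen with earlier results of these data known, and the part of expression level in the share called was not tested. The classical targets *Ccn1* and *Ccn2* rose by 0.91 and 0.95 and *Nuak2* by 1.54, whereas *Igfbp3*, *Ccdc80* and *F3* fell by 2.04, 0.91 and 0.82. All 6 kept their call in each of 16 alternatives. With library size alone 6 targets were lower and on log2(FPKM + 1) values 5.

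Across the 6 libraries, the genes whose log2 CPM followed *Yap1* most closely, of 8808 with a mean of at least 10 CPM, were *Nos2* (Pearson r of 0.989) and *Champ1* (0.980). For *Wwtr1* they were *Nbeal1* (0.991) and *Il1rap* (0.989). These are descriptions over 6 points that share the 2 groups, and 130 and 178 genes respectively had an r over 0.9.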

How the data were processed

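Per the study's methods, trimming was by Trimmomatic, alignment by HISAT2 (GRCm38), counting by HTSeq-count and FPKM by Cufflinks. The authors deposited 1 table of raw read counts per gene, without normalization, and FPKM per library and as group means. Versions and strand use are not given in the sources used here. The labels and the study's methods name different library kits, that of the methods being a stranded one. The deposited log2 fold change, p-value and false discovery rate are the authors' own comparison and were not used. The number of per-sample columns left out was 0.

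Counts were fitted in R 4.3.3 with edgeR 4.0.16 (filterByExpr, minimum count 10 and minimum total 15, leaving 12862 genes; TMM; two-sided quasi-likelihood test, Benjamini-Hochberg over all tested genes, threshold 0.05). The SE of a log2 fold change was its size divided by the root of the F statistic. Alternatives were RLE, upper-quartile and library-size scaling, other filters, DESeq2 1.42.0, limma 3.58.1 on voom and on log2(FPKM + 1) or log2(FPKM + 0.1), a replicate block, fits without 1 library, and Gm49361 counts added to *Lats2*, which was added after seeing the data and cannot recover reads counted for neither gene. Ratios and shares were tested by exact permutation over 6 libraries. The tests across genes were tested on simulated data. There, the changed genes that were called had the right direction, but a part of the changed genes was missed in each fit. A gene not called here can therefore still have changed. The share of false calls ran above the nominal threshold in each fit. Far fewer genes were changed there than were called here, so that share cannot be carried over to these data. Calls just under the threshold remain the least certain. Precision is limited by 3 libraries per group at 17002126 to 20343590 counts.

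The 10 genes and the lists were chosen with earlier results of these data known. Named genes are the 10, *Tet3*, and from each other list up to 3 per direction past the threshold with a mean of at least 10 CPM, by absolute log2 fold change, with the 2 genes most like *Yap1* and *Wwtr1*. Markers were *Col1a1*, *Col1a2*, *Dcn*, *Lum*, *Pdgfra* and *Tcf21* (fibroblast), *Pecam1*, *Cdh5*, *Kdr* and *Tek* (endothelial), *Ptprc*, *Adgre1*, *Csf1r* and *Lyz2* (macrophage), *Myh6*, *Tnnt2*, *Actn2* and *Ryr2* (cardiomyocyte), *Rgs5*, *Kcnj8*, *Myh11* and *Cspg4* (mural), and *Wt1*, *Upk3b*, *Msln* and *Krt19* (mesothelial). Coordinates and exons are from GENCODE M21 (GRCm38), where 21973 of 22063 genes were found, and promoter windows from RefSeq (GRCm38.p6). The motif was searched as CATTCC on both strands. Figures were drawn with matplotlib 3.10.9.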

Additional observations from a re-analysis of the deposited data

How the results depend on the processing

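Among the 10 genes, 1 was lower on log2(FPKM + 1) and on log2(FPKM + 0.1) values in place of 3, and leaving out 1 library at a time gave 2 to 3 higher and 2 to 4 lower. Of the other Hippo pathway genes, 20 higher and 13 lower became 39 and 3 with library size alone, 13 were higher in DESeq2, 8 were lower with upper-quartile scaling, and 3 were lower in both FPKM fits. Leaving out 1 library gave 12 to 18 higher and 7 to 11 lower. YAP targets called lower went from 10 to 6 with library size alone, and to 5 and 6 in the FPKM fits with pseudocounts of 1 and 0.1. Signs turned for *Yap1* (0.069 with library size alone, 0.084 and 0.085 in the FPKM fits), *Wwtr1* (0.076, 0.073 and 0.075), *Lats1* (0.060, 0.050 and 0.052), *Ywhab* (0.041, 0.045 and 0.045) and *Ywhag* (0.043, 0.043 and 0.043), and in the FPKM fits alone for *Ywhaz* (0.026 and 0.026). *Mob1a* and *Nf2* turned with library size alone (0.126 and 0.131) and on log2(FPKM + 1) values (0.168 and 0.160). Neither library size alone nor the FPKM fits use TMM factors, and the median of all genes shifted by 0.16 with library size alone and by 0.13 and 0.16 in the FPKM fits. The log2 *Wwtr1*/*Yap1* ratio, near 0, turned to 0.0059 with counts per longest transcript, and without single libraries it ran from -0.040 to 0.034.

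Replicate numbers were not used to pair the samples in the main fit. Same-numbered libraries deviated together with r of 0.046, 0.180 and -0.018, and differently numbered ones with r from -0.116 to 0.071. With 3 libraries per group these values cannot settle whether the samples were paired. With the replicate block, 3 of the 10 genes were higher and 3 lower, as without it, and 19 and 12 of the other pathway genes. Depth limits *Tead4* most, with 27 to 76 counts per library.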
